A study of Mus musculus with 48 samples.

Results

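The 38 genes described here encode the enzymes and transporters of glycolysis, the handling of lactate and pyruvate and the pentose phosphate pathway, together with the transcription factor HIF1A, and the rule names them by symbol, from textbook pathways, and sets no measured threshold, although they were chosen with earlier results of these data known. All 38 symbols were found among the 53345 genes of the deposited matrix and all passed the filter on low counts. They comprised 2 glucose transporters, 11 genes of upper glycolysis, 7 of lower glycolysis, 4 of lactate metabolism, 6 of pyruvate entry and the pyruvate dehydrogenase complex, 3 pyruvate dehydrogenase kinases, 4 of the pentose phosphate pathway and Hif1a.

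Bulk RNA-seq was made from spleens of undiseased female C57BL/6 mice of 8 to 12 weeks. Each of the 32 mice first received an isotype control antibody or an antibody that blocks MHC class II, 500 µg per dose on the day before and the day of cytokine dosing, and then either PBS or 25 µg of an IL-2 molecule under the skin, and spleens were taken on day 4. The IL-2 molecules were human IL-2 fused to an Fc domain, as the wild type (WT), the H16R mutein or the 3x mutein. CD25+ regulatory T cells (Tregs) were purified on magnetic beads from 4 mice in each of the 8 combinations, giving 32 libraries. CD25- conventional CD4 T cells (Tcons), the unbound fraction of the same columns, were sequenced from 2 of those mice per combination, giving 16 libraries. Both arms are therefore antibody-treated, and neither fraction was sorted by flow cytometry. Replicates were separate mice, and 2 WT mice of the isotype arm that carry the same number in the labels are called 3a and 3b.

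Glycolysis splits glucose into pyruvate and is used by dividing T cells for energy and for building blocks. Pyruvate can be reduced to lactate by lactate dehydrogenase and leave the cell through monocarboxylate transporters, or it can enter mitochondria and feed the tricarboxylic acid cycle through pyruvate dehydrogenase, which the kinases PDK1, PDK2 and PDK3 hold back. The pentose phosphate pathway branches off at glucose 6-phosphate and yields NADPH and ribose. Many of these genes are known targets of HIF1A and MYC, and effector T cells are known to rely on glycolysis more than Tregs do. Values below are mRNA levels, which say nothing of enzyme activity or flux, and in a bulk library fewer cells of a type and less RNA per cell cannot be told apart.

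Libraries held 18.3 to 51.2 M assigned fragments in Tregs and 31.3 to 52.0 M in Tcons, and the isotype PBS Tregs were shallowest at 18.3 to 34.6 M. Values are given as CPM (counts scaled to the library total after trimmed mean of M values, TMM, normalisation), changes as log2 fold changes with their standard error (SE), and a gene is said to have changed where the edgeR quasi-likelihood test gave a Benjamini-Hochberg adjusted p under 0.1 over all genes tested (12392 in Tregs). Foxp3, which defines Tregs, was at 687 to 1249 CPM in the Treg libraries and at 46.8 to 183 in the Tcons. Transcripts of other cell types were present in the purified fractions. The summed level of 6 B cell markers, nearly all of it the immunoglobulin gene Ighm, was 7495 to 10996 CPM in isotype PBS Tregs, 1338 to 2101 in isotype 3x Tregs and 9002 to 22438 in the WT Tregs under the block. Myeloid markers summed to 603 CPM in replicate 1 of that last group and to 105 in replicate 1 of the isotype PBS Tregs, against 8.00 to 64.4 in the other Treg libraries. Genes of cycling cells summed to 254 to 309 CPM in isotype PBS Tregs, 553 to 864 in isotype 3x Tregs and 855 to 1144 in 3x Tregs under the block, and the 5 Treg markers also differed, at 2627 to 3259 CPM in isotype PBS Tregs against 3921 to 4453 in isotype WT Tregs.

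The promoters of Ldha, Slc16a3 and Hk2 are shown because these genes, chosen after their values were seen, moved furthest or in opposite directions below. The sequences are RefSeq's on GRCm38.p6 and hold the 250 bases before a start that RefSeq gives, 5′ to 3′ on the gene's strand, with each match to ACGTG or GCGTG on either strand in capitals. For Ldha and Slc16a3 that start lies inside the gene as GENCODE annotates it. Ldha has 2 RefSeq windows, of which the other, not shown, held 0 matches to ACGTG and 2 to GCGTG. These letters are the core of the hypoxia response element that HIF1A is known to bind, and CACGTG, an E-box that MYC family proteins are known to bind, holds ACGTG on both strands. Ldha, chr7:46845554-46845803 on the plus strand, had 5 matches, Slc16a3, chr11:120948817-120949066 on the plus strand, had 2, and Hk2, chr6:82774455-82774704 on the minus strand, had 2.
Ldha: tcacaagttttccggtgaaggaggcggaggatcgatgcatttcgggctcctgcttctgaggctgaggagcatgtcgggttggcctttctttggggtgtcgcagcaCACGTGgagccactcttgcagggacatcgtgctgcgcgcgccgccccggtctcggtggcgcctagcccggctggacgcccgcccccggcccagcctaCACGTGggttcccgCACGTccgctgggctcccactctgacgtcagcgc
Slc16a3: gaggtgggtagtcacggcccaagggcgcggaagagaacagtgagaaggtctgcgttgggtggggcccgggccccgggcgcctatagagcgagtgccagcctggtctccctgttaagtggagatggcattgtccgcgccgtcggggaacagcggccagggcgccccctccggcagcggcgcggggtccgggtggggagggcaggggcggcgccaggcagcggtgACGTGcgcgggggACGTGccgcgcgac
Hk2: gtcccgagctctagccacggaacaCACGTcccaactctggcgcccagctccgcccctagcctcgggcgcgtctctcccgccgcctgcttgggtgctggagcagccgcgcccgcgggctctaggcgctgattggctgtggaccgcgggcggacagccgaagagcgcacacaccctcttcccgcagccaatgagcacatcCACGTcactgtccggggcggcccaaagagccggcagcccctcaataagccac
RefSeq windows of 300 bases were found for 37 of the 38 genes. ACGTG or GCGTG stood in a window of 86.5% of the 37 genes and of 46.7% of all 27025 genes with a window. ACGTG stood in 51.4% against 21.8%, GCGTG in 67.6% against 35.2% and CACGTG in 16.2% against 8.09%. Counted by window rather than by gene, ACGTG or GCGTG stood in 75.5% of 53 member windows and in 43.8% of all 32851 windows. The sets were not matched for base composition. A match is a description of the letters, and both the gene that rose most with the muteins under the block and Hk2, which fell, carried it.

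Compared per length, as FPKM (fragments scaled by gene length and library total) averaged over the 32 Treg libraries, Gapdh was the most abundant at 404, followed by Ldha at 343, Pkm at 337, Eno1 at 222, Aldoa at 191 and Gpi1 at 171. Among the isozymes 1 form was far above the others at the level of mRNA. Hk1 was at 53.0 FPKM against 2.42 for Hk2, Aldoa at 191 against 4.94 for Aldoc, Eno1 at 222 against 17.4 for Eno3 and Ldha at 343 against 27.5 for Ldhb. Pfkp, at 44.8 FPKM, was above Pfkl at 16.4 and Pfkm at 6.32, and Slc2a3 at 46.4 was above Slc2a1 at 15.1. The lactate transporters Slc16a3 and Slc16a1 lay close together at 6.41 and 5.36 FPKM. The lowest of the 38 was Pfkfb4 at 1.99 FPKM. Reads of Pfkp are uncertain in part, since a stretch of at least 200 bases that is at least 95% identical occurs in Pitrm1, whose level was 37.8% of that of Pfkp. Where Pfkp rose most, Pitrm1 had a log2 change of -0.53 (SE 0.05) for H16R and -0.52 (SE 0.05) for 3x over PBS under the block. For block against isotype after 3x, where Pfkp rose by 0.57, that of Pitrm1 was only -0.11 (SE 0.05, edgeR adjusted p = 0.0624).

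In the isotype arm the 3 IL-2 molecules moved glycolytic genes in both directions, and the isozymes of single steps parted. WT IL-2 raised 19 and lowered 11 of the 38 genes, or 50.0% and 28.9%, while 26.0% of all genes tested rose and 26.2% fell. H16R raised 14 and lowered 12 against a background of 31.4% and 32.8%, and 3x raised 15 and lowered 10 against 31.3% and 32.3%, so that the muteins' shares lay close to those of all genes. With the summed B cell markers as a covariate the 3x count fell to 8, and without TMM scaling it was 11 higher and 13 lower. The median log2 change of the 38 was 0.12 with WT, 0.06 with H16R and 0.05 with 3x, against -0.01 for all genes in each. Genes raised by all 3 molecules numbered 12, namely Aldoc, Gpi1, Hk1, Ldha, Pfkp, Pgd, Pkm, Slc16a3, Slc2a1, Slc2a3, Taldo1 and Tkt, and genes lowered by all 3 numbered 6, namely Eno3, Hk2, Ldhb, Pfkfb4, Pfkm and Slc16a1. Of all genes tested 20.9% rose with all 3 and 20.4% fell with all 3, and the 3 contrasts share their PBS libraries.

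Under MHC II block the response to WT IL-2 was small and that to the muteins was broad. WT IL-2 raised 7 and lowered 3 of the 38 genes, 18.4% and 7.89%, against 21.9% and 13.7% of all genes, and without TMM scaling the split was 5 and 9. H16R raised 24 and lowered 7, or 63.2% and 18.4%, against 32.7% and 33.8% of all genes. The 3x mutein also raised 24 and lowered 7, against 34.7% and 38.3%. With the B cell markers as a covariate the counts of 10, 31 and 31 called genes became 6, 32 and 29. The median of the 38 was 0.22 with H16R and 0.23 with 3x, where that of all genes was -0.02 and -0.04. Markers of cell types moved in the same contrasts. With WT 6 of 6 myeloid and 3 of 5 B cell markers were higher, and with each mutein 1 and 0. CD8 and NK cell markers were higher in 4 of 5 with each molecule, with 1 lower with each mutein. Cycling markers were higher in 3 of 4 with WT and 4 of 4 with each mutein. Treg markers were higher in 2 of 5 with WT and 5 of 5 with each mutein. The part of these was not tested further. The muteins raised 22 and lowered 6 genes in common, against 28.9% and 30.2% of all genes, again over shared PBS libraries. Over both arms and all 3 molecules, Aldoc, Pgd, Slc16a3, Slc2a3 and Taldo1 rose in 6 of 6 comparisons with PBS and Eno3, Ldhb and Pfkm fell in 6 of 6. These are 13.2% and 7.89% of the 38, close to the 10.3% and 7.63% of all genes that did the same. The weakest of these calls were those for WT under the block. That of Taldo1, at 0.22, was lost without block WT replicate 1 (0.14), and that of Pfkm, at -0.18, was lost without the same library (-0.16) or without block PBS replicate 4 (-0.15).

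**Figure D1:**
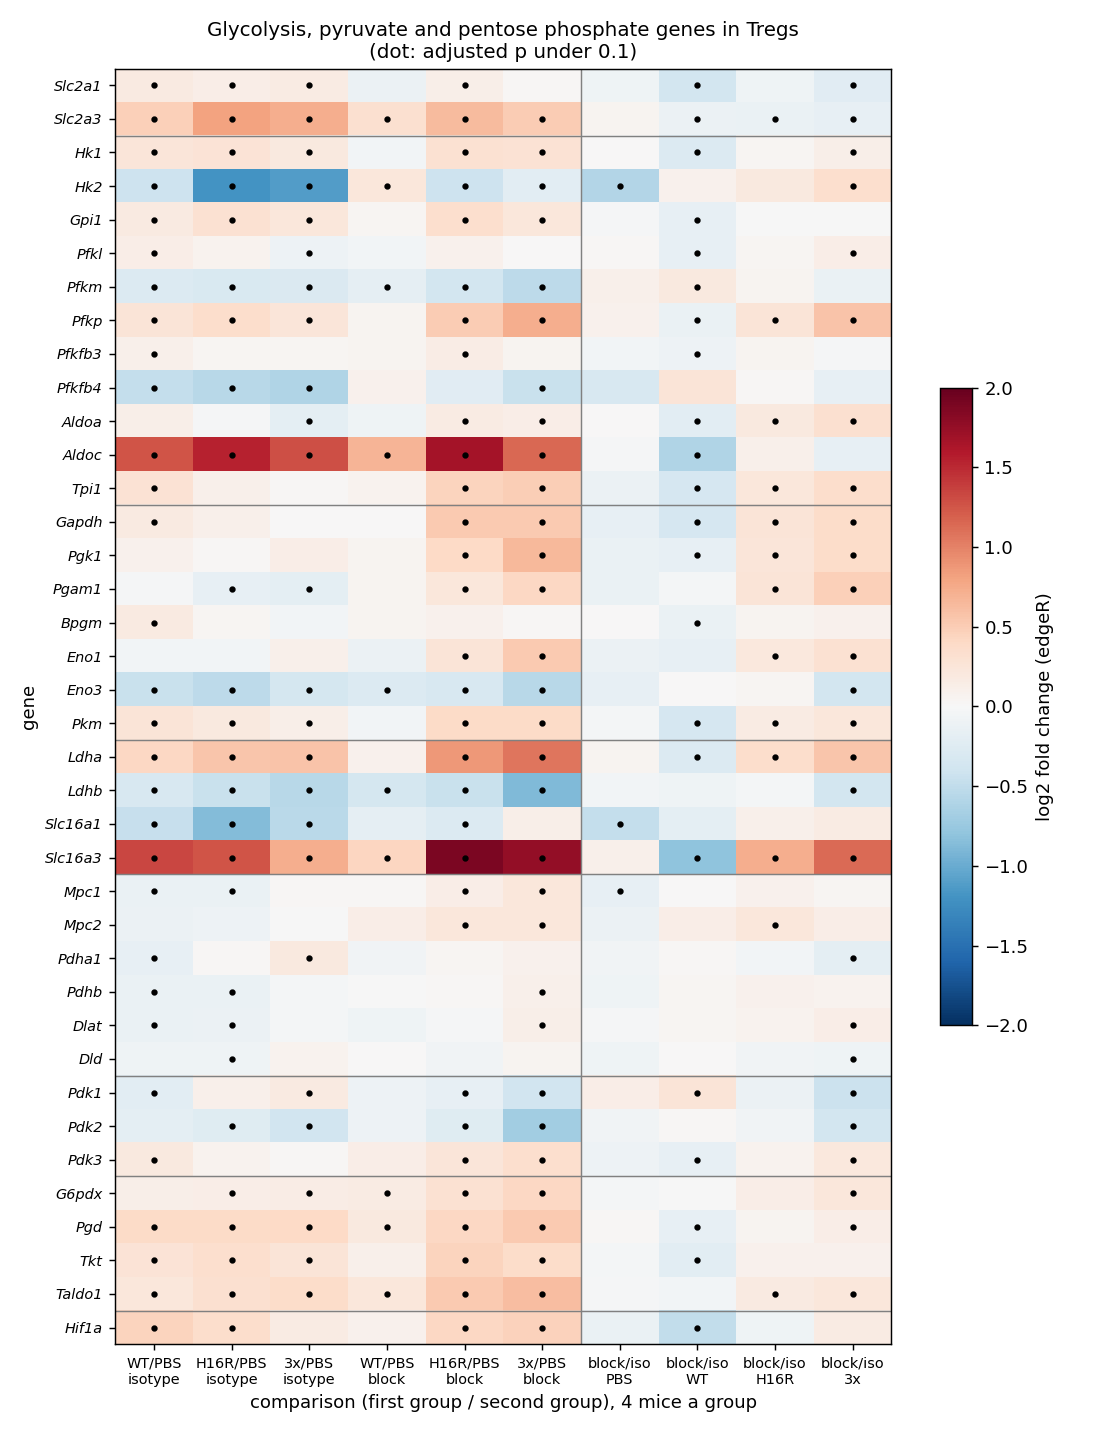
Heat map of log2 fold changes in Tregs for the 38 genes (rows, by role) in the 6 comparisons of an IL-2 molecule with PBS and the 4 of MHC II block with isotype (columns), with colours from -2 to 2 and a dot where the edgeR adjusted p was under 0.1 (n = 4 per group). Slc16a3 and Aldoc are the deepest rises over PBS and Hk2 in the isotype arm the deepest fall, and the columns of block against isotype turn from mostly lower after WT (20 of 22 calls) to mostly higher after 3x (18 of 26).

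Of the glucose transporters, Slc2a3 (GLUT3) rose with every molecule. In the isotype arm Slc2a3 was at 124, 139, 136 and 142 CPM with PBS, 195, 179, 195 and 186 with WT, 239, 227, 251 and 228 with H16R and 205, 215, 237 and 230 with 3x. Under the block Slc2a3 was at 143, 142, 137 and 137 with PBS, 153, 178, 186 and 170 with WT, 214, 213, 215 and 224 with H16R and 212, 211, 188 and 192 with 3x. No treated library reached down into the PBS range of its arm. In the isotype arm the log2 change of Slc2a3 was 0.48 with WT, 0.81 with H16R and 0.73 with 3x (SE 0.05 each), and under the block it was 0.32, 0.63 and 0.51.

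Slc2a1 (GLUT1), the transporter most often tied to T cell activation, moved little. Slc2a1 was at 47.2, 50.8, 47.8 and 51.8 CPM with PBS, 53.4, 57.9, 54.2 and 58.1 with WT, 53.9, 53.0, 55.1 and 53.7 with H16R and 52.8, 53.3, 55.6 and 58.4 with 3x in the isotype arm. Under the block Slc2a1 was at 47.9, 47.9, 43.5 and 47.9 with PBS, 40.5, 48.7, 42.4 and 39.2 with WT, 49.8, 46.0, 51.9 and 56.5 with H16R and 49.5, 45.5, 52.0 and 45.4 with 3x. The isotype groups with IL-2 lay above PBS without overlap, whereas each group under the block overlapped PBS. Its change furthest from 0 among the 10 comparisons with PBS or between arms was a fall of WT Tregs under the block against WT Tregs with isotype, at -0.37 (SE 0.06, edgeR adjusted p = 2.92e-05). The rises over PBS in the isotype arm were 0.13 to 0.18, and that of H16R was lost without isotype PBS replicate 1 or 3 or isotype H16R replicate 3, at 0.12 each. With the B cell markers as a covariate all 3 isotype calls were lost, at 0.11, 0.00 and -0.06 for WT, H16R and 3x.

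The hexokinases, which trap glucose in the cell, changed in opposite directions. Hk1, the main form, was at 178 to 186 CPM in isotype PBS Tregs and at 203 to 219 with WT, 211 to 224 with H16R and 200 to 206 with 3x. Hk2, the inducible form, was at 23.6, 20.1, 19.8 and 20.3 CPM with PBS, 14.9, 15.9, 15.2 and 16.9 with WT, 9.97, 9.51, 7.90 and 9.42 with H16R and 9.29, 9.34, 9.60 and 10.3 with 3x in the isotype arm. All treated isotype libraries lay below PBS for Hk2 and above PBS for Hk1. Hk2 fell by 0.42 (SE 0.09) with WT, by 1.19 (SE 0.09, edgeR adjusted p = 2.66e-11) with H16R and by 1.12 (SE 0.09) with 3x, the muteins leaving it at 0.438 and 0.461 of its PBS level.

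Under the block Hk2 started lower and changed less. Hk2 was at 14.4, 13.3, 14.8 and 14.0 CPM with PBS, 19.1, 15.3, 13.0 and 18.2 with WT, 10.2, 11.4, 10.4 and 10.6 with H16R and 13.2, 11.9, 11.8 and 12.2 with 3x. Of the WT libraries replicate 3 lay just below the PBS range and the others above it, while all those of the muteins lay below it. The block alone lowered Hk2 in PBS-treated mice by 0.58 (SE 0.09, edgeR adjusted p = 1.76e-04), with no overlap between arms. Against block PBS, H16R lowered Hk2 by 0.41 (SE 0.09), and the call for 3x at -0.21 was lost without block PBS replicate 3 or block 3x replicate 3, at -0.18 each. WT gave 0.23 under the block, a call that was lost without block PBS replicate 2 (0.21), block PBS replicate 4 (0.23), block WT replicate 1 (0.14) or block WT replicate 4 (0.18). The fall in Hk2 with a mutein was smaller under the block than with isotype, by 0.78 (SE 0.13) for H16R and 0.90 (SE 0.13, edgeR adjusted p = 1.66e-05) for 3x.

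Phosphofructokinase commits sugar to glycolysis, and its platelet and muscle forms parted. Pfkp was at 111, 108, 119 and 112 CPM with PBS, 124, 145, 133 and 138 with WT, 142, 135, 152 and 142 with H16R and 138, 130, 126 and 133 with 3x in the isotype arm. Under the block Pfkp was at 123, 120, 117 and 116 with PBS, 120, 125, 118 and 124 with WT, 172, 156, 171 and 183 with H16R and 202, 173, 201 and 218 with 3x. Only WT under the block overlapped PBS among these 6 comparisons. Pfkp rose by 0.26 (SE 0.05) with WT, 0.35 with H16R and 0.24 with 3x in the isotype arm and by 0.51 with H16R and 0.73 (SE 0.05, edgeR adjusted p = 3.72e-12) with 3x under the block. Its rise with 3x was larger under the block than with isotype by 0.49 (SE 0.08). The isotype 3x call did not hold with the B cell markers as a covariate, at 0.12.

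Pfkm went down. Pfkm was at 18.7, 21.6, 19.7 and 24.6 CPM with PBS, 19.1, 15.0, 18.0 and 17.6 with WT, 16.8, 16.4, 17.7 and 16.7 with H16R and 16.6, 18.5, 17.6 and 16.0 with 3x in the isotype arm. Under the block Pfkm was at 20.9, 22.4, 23.0 and 24.2 with PBS, 18.5, 19.9, 19.6 and 20.9 with WT, 18.3, 18.2, 16.2 and 18.2 with H16R and 15.2, 16.9, 15.7 and 15.7 with 3x. The mutein libraries lay below PBS in both arms, and those of WT met the PBS range. Pfkm fell by 0.27 (SE 0.07) with WT, 0.31 with H16R and 0.29 with 3x in the isotype arm and by 0.36 with H16R and 0.52 (SE 0.07) with 3x under the block, and the isotype 3x call was lost with the B cell markers as a covariate (-0.24).

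Of the bifunctional enzymes that set fructose 2,6-bisphosphate, a signal that drives phosphofructokinase, Pfkfb3 changed by at most 0.15 against PBS and Pfkfb4 fell. Pfkfb4, at few counts, was at 11.1, 9.30, 7.55 and 9.79 CPM with PBS, 6.54, 6.77, 7.43 and 6.53 with WT, 6.67, 6.46, 5.44 and 7.00 with H16R and 5.43, 6.76, 6.67 and 5.94 with 3x in the isotype arm. Under the block Pfkfb4 was at 7.93, 8.30, 7.81 and 6.32 with PBS, 11.8, 6.82, 6.42 and 6.97 with WT, 6.90, 6.23, 6.78 and 6.24 with H16R and 4.86, 5.70, 6.17 and 5.80 with 3x. All isotype groups with IL-2 and the 3x group under the block lay below PBS, and replicate 1 of the block WT group stood alone above the rest. Pfkfb4 fell by 0.47 (SE 0.15) with WT, 0.56 with H16R and 0.60 with 3x in the isotype arm. With the B cell markers as a covariate none of these 3 calls held.

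Aldolase C, a minor form of the enzyme in these cells, rose with every molecule. Aldoc was at 5.45, 5.56, 4.19 and 5.19 CPM with PBS, 13.2, 11.4, 12.9 and 11.0 with WT, 14.9, 14.7, 16.4 and 13.2 with H16R and 13.2, 11.6, 12.1 and 12.6 with 3x in the isotype arm. Under the block Aldoc was at 5.57, 5.06, 3.62 and 5.87 with PBS, 8.32, 8.55, 7.71 and 7.07 with WT, 13.9, 14.8, 16.5 and 18.6 with H16R and 10.9, 12.0, 12.1 and 9.72 with 3x. All 6 treated groups lay above PBS without overlap. In the isotype arm Aldoc rose 2.38-fold with WT (log2 1.25, SE 0.12), 2.91-fold with H16R (1.54, SE 0.12) and 2.44-fold with 3x (1.29, SE 0.12), and under the block 1.60-fold, 3.18-fold and 2.21-fold. Aldoa, the main form, changed by -0.20 to 0.17 against PBS. Aldoa is annotated at 2 adjoining loci under 1 symbol, and its value may join them.

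In lower glycolysis, where triose is turned into pyruvate with the gain of ATP, the muteins under the block raised 5 of 7 genes and lowered 1, with a median log2 change of 0.26 for H16R and 0.41 for 3x. In the isotype arm they raised 1 and lowered 2. Of all genes, H16R and 3x raised 32.7% and 34.7% and lowered 33.8% and 38.3% under the block. With isotype they raised 31.4% and 31.3% and lowered 32.8% and 32.3% of all genes. Gapdh was at 606, 497, 536 and 557 CPM with isotype PBS, 591, 516, 540 and 547 with isotype 3x, 510, 504, 465 and 485 with block PBS and 748, 618, 730 and 755 with block 3x. Its 3x libraries thus overlapped PBS with isotype and lay above it under the block, where the change was 0.53 (SE 0.07, edgeR adjusted p = 8.74e-08). Pgk1 rose by 0.65 (SE 0.07), Eno1 by 0.53 (SE 0.08), Pgam1 by 0.41 (SE 0.08) and Pkm, the final step to pyruvate, by 0.39 (SE 0.06) with 3x under the block. The rises with 3x under the block exceeded those with isotype by 0.52 (SE 0.09) for Gapdh, 0.52 (SE 0.10) for Pgk1 and 0.60 (SE 0.11) for Pgam1. Bpgm, which makes 2,3-bisphosphoglycerate, changed by at most 0.08 with the muteins.

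The muscle enolase Eno3 fell in all 6 comparisons. Eno3 was at 36.4, 33.0, 33.0 and 35.0 CPM with PBS, 28.7, 20.4, 26.8 and 25.3 with WT, 24.2, 23.7, 25.5 and 22.1 with H16R and 29.1, 27.7, 24.4 and 26.2 with 3x in the isotype arm. Under the block Eno3 was at 32.7, 32.0, 27.2 and 31.1 with PBS, 26.8, 22.5, 27.0 and 24.7 with WT, 25.1, 23.6, 23.9 and 26.3 with H16R and 21.8, 21.8, 19.0 and 21.7 with 3x. No treated library overlapped the PBS range of its arm. Eno3 fell by 0.44 (SE 0.08) with WT, 0.52 with H16R and 0.35 with 3x in the isotype arm and by 0.27, 0.32 and 0.55 (SE 0.08 each) under the block, where the WT call did not hold with the B cell markers as a covariate (-0.18).

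The 4 lactate genes split by form, Ldha and Slc16a3 rising and Ldhb and Slc16a1 falling. Lactate dehydrogenase A, which favours lactate, was at 419, 371, 396 and 374 CPM with PBS, 546, 513, 524 and 487 with WT, 570, 557, 657 and 511 with H16R and 633, 535, 551 and 581 with 3x in the isotype arm. Under the block Ldha was at 424, 404, 396 and 390 with PBS, 387, 458, 424 and 420 with WT, 715, 650, 759 and 819 with H16R and 925, 721, 860 and 918 with 3x. WT under the block overlapped PBS, and the other 5 treated groups lay above it. Ldha rose 1.32-fold with WT (log2 0.41, SE 0.08), 1.47-fold with H16R and 1.48-fold with 3x in the isotype arm, and 1.82-fold with H16R and 2.10-fold with 3x (1.07, SE 0.08, edgeR adjusted p = 1.28e-12) under the block. With WT under the block Ldha differed from PBS by 0.08, with a 95% interval from -0.06 to 0.23. The isotype 3x call did not hold with the B cell markers as a covariate, at 0.29.

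Lactate dehydrogenase B, which favours pyruvate, fell. Ldhb was at 46.8, 45.1, 51.6 and 46.5 CPM with PBS, 37.2, 40.3, 39.9 and 35.6 with WT, 32.3, 34.5, 35.1 and 36.7 with H16R and 30.7, 35.0, 32.1 and 30.0 with 3x in the isotype arm. Under the block Ldhb was at 44.2, 45.7, 44.0 and 50.5 with PBS, 28.2, 39.0, 40.8 and 34.9 with WT, 38.2, 32.6, 32.7 and 32.6 with H16R and 24.7, 26.1, 25.7 and 24.2 with 3x. All treated libraries lay below PBS, and the 3x libraries under the block were the lowest 4 of the 32. Ldhb fell by 0.32 with WT, 0.45 with H16R and 0.56 with 3x in the isotype arm and by 0.35, 0.44 and 0.88 under the block (SE 0.08 each, edgeR adjusted p = 7.75e-11 for the last).

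Slc16a3 (MCT4), the transporter known for exporting lactate, rose most of the 38 genes with both muteins under the block. Slc16a3 was at 7.88, 6.69, 9.36 and 6.29 CPM with PBS, 17.8, 25.3, 16.7 and 17.3 with WT, 19.6, 16.8, 18.6 and 17.2 with H16R and 14.2, 11.0, 12.9 and 11.7 with 3x in the isotype arm. Under the block Slc16a3 was at 8.65, 8.30, 7.70 and 8.15 with PBS, 12.3, 10.3, 9.82 and 11.1 with WT, 29.3, 27.2, 35.3 and 28.7 with H16R and 35.4, 20.4, 30.3 and 24.7 with 3x. Every treated library lay above PBS, but the order of the molecules differed by arm, with 3x lowest of the 3 with isotype and WT lowest under the block. Slc16a3 rose 2.53-fold with WT (log2 1.34, SE 0.15), 2.38-fold with H16R (1.25, SE 0.15) and 1.64-fold with 3x (0.72, SE 0.15) in the isotype arm, and 1.34-fold, 3.67-fold (1.88, SE 0.15, edgeR adjusted p = 2.09e-11) and 3.36-fold (1.75, SE 0.15) under the block. The calls for 3x with isotype and for WT under the block did not hold with the B cell markers as a covariate, at 0.77 and 0.40, and the latter was also lost without the 2 libraries with high myeloid markers, at 0.36.

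Slc16a1 (MCT1), which carries lactate both ways, fell in most groups. Slc16a1 was at 30.9, 29.8, 34.1 and 42.4 CPM with PBS, 24.6, 24.3, 25.9 and 24.8 with WT, 20.5, 18.9, 17.9 and 17.9 with H16R and 26.6, 21.0, 20.0 and 25.6 with 3x in the isotype arm. Under the block Slc16a1 was at 23.9, 24.3, 25.1 and 25.1 with PBS, 18.2, 21.1, 23.7 and 22.5 with WT, 18.6, 20.0, 20.7 and 21.7 with H16R and 27.2, 22.6, 24.7 and 32.0 with 3x. With isotype every treated library lay below PBS, and under the block the 3x libraries overlapped it. Slc16a1 fell by 0.46 with WT, 0.86 with H16R and 0.54 with 3x in the isotype arm (SE 0.10 each), and the block alone lowered it by 0.48 in PBS-treated mice (edgeR adjusted p = 0.00251).

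**Figure D2:**
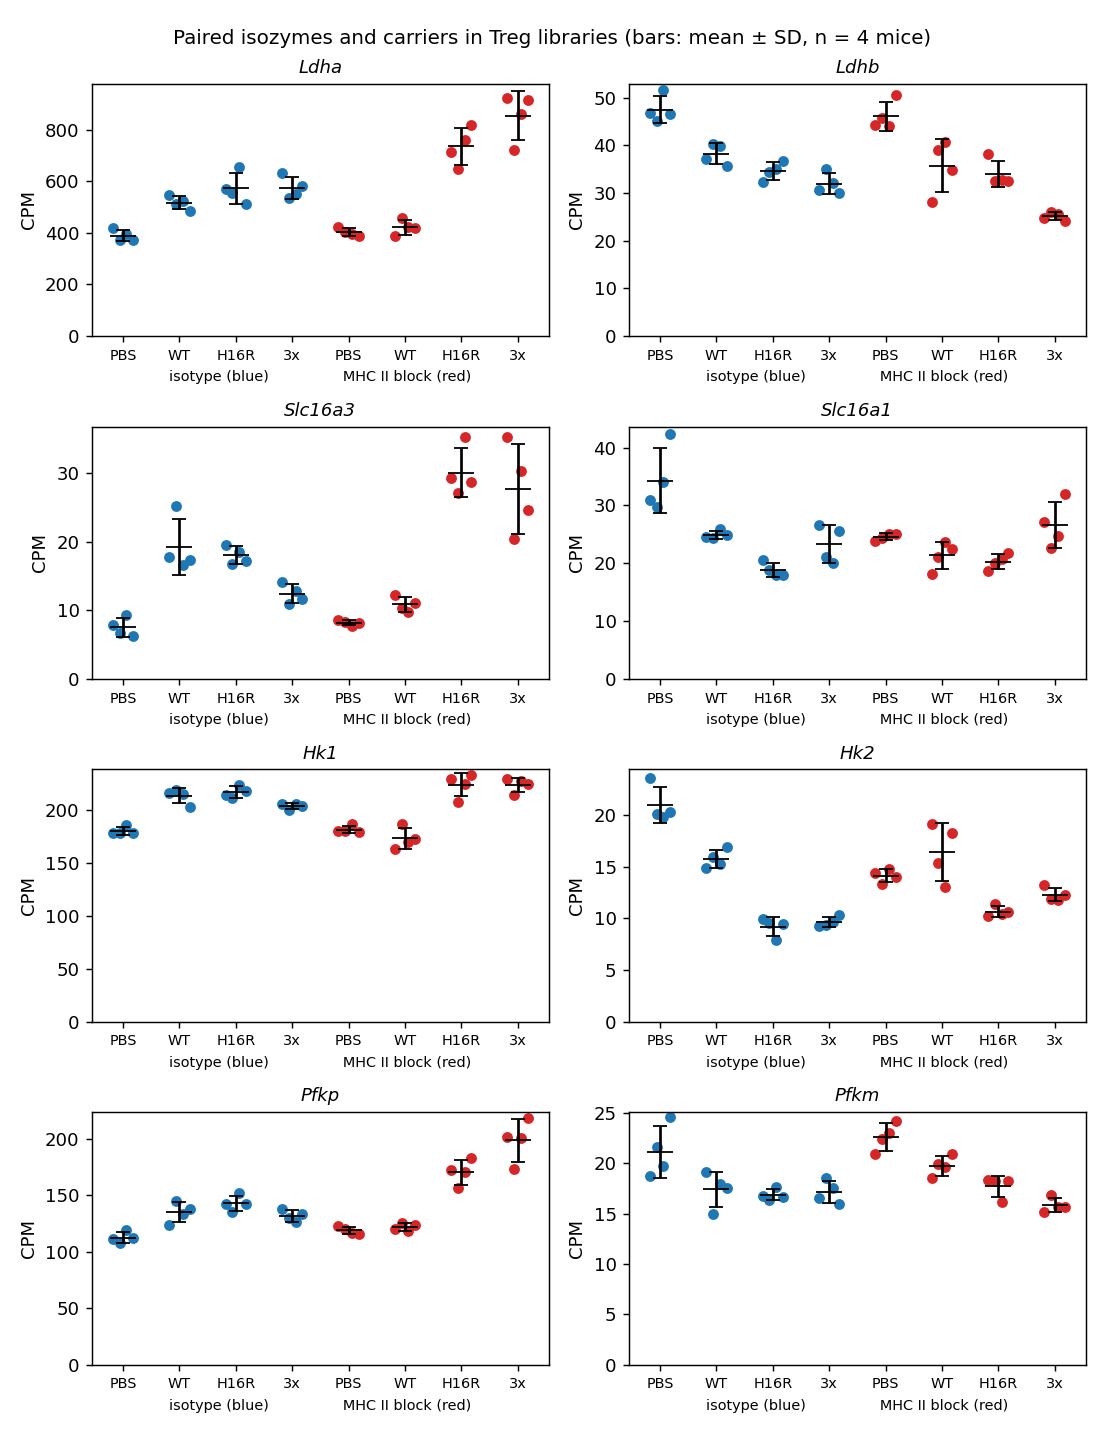
CPM of 4 pairs of genes that serve the same step, Ldha and Ldhb, Slc16a3 and Slc16a1, Hk1 and Hk2, Pfkp and Pfkm, in each of the 32 Treg libraries, by antibody and IL-2 molecule, with points for libraries and bars for mean ± SD (n = 4). With the muteins the first gene of each pair rises and the other falls or holds, with Ldha reaching 721 to 925 CPM and Ldhb 24.2 to 26.1 with 3x under the block.

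Genes that carry pyruvate into mitochondria and oxidise it moved less. WT lowered 4 of these 6 and raised 0 in the isotype arm, with a median log2 change of -0.13, and H16R also lowered 4 and raised 0, with a median of -0.11. Of all genes, 26.2% fell and 26.0% rose with WT in that arm, and 32.8% fell and 31.4% rose with H16R. Only the fall in Dlat with WT, the acetyltransferase of the complex, kept its call under all alternatives tried, at -0.14 (SE 0.04). With 3x the catalytic subunit Pdha1 was the 1 gene to pass the test there, at 0.20 (SE 0.05), and not with the B cell markers as a covariate. Under the block WT changed 0 of the 6, while H16R raised 2 and 3x raised 4. Of all genes, 21.9%, 32.7% and 34.7% rose with WT, H16R and 3x under the block, and 13.7%, 33.8% and 38.3% fell. With 3x the subunits of the mitochondrial pyruvate carrier Mpc1 and Mpc2 rose by 0.23 each (SE 0.06 and 0.08) and Dlat by 0.12 (SE 0.04).

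The kinases of pyruvate dehydrogenase diverged under the block. Pdk1 was at 98.9, 114, 105 and 131 CPM with PBS, 106, 91.9, 99.9 and 89.3 with WT, 118, 117, 127 and 119 with H16R and 120, 126, 124 and 135 with 3x in the isotype arm. Under the block Pdk1 was at 130, 125, 118 and 124 with PBS, 107, 117, 122 and 111 with WT, 115, 119, 96.0 and 116 with H16R and 94.4, 101, 97.1 and 88.8 with 3x. Of these 6 treated groups only 3x under the block was apart from PBS, with a fall of 0.39 (SE 0.07, edgeR adjusted p = 1.51e-05). The remaining calls for Pdk1 rested on single libraries. That of WT with isotype, -0.21, was lost without isotype PBS replicate 4 (-0.13), that of 3x with isotype, 0.18, without isotype PBS replicate 1 (0.13), and that of H16R under the block, -0.16, without block PBS replicate 1 (-0.12), block PBS replicate 2 (-0.14) or block H16R replicate 3 (-0.09).

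Pdk2 was at 15.8, 16.8, 15.2 and 11.1 CPM with PBS, 13.3, 12.8, 14.2 and 11.4 with WT, 12.5, 12.3, 11.7 and 13.3 with H16R and 9.56, 12.6, 12.7 and 9.80 with 3x in the isotype arm. Under the block Pdk2 was at 12.9, 14.2, 13.3 and 16.0 with PBS, 13.6, 13.2, 12.1 and 13.2 with WT, 11.8, 13.0, 11.1 and 12.0 with H16R and 8.37, 10.5, 9.25 and 7.23 with 3x. Only 3x under the block lay wholly below PBS. Pdk2 fell by 0.69 (SE 0.12) there and by 0.39 (SE 0.12) with 3x and isotype, a call that with the B cell markers as a covariate turned to 0.08. Pdk3 rose by 0.33 (SE 0.06) with 3x and by 0.24 (SE 0.06) with H16R under the block.

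All 4 pentose phosphate genes passed the test for a rise with both muteins in both arms. Of all genes, 31.4% and 31.3% rose with H16R and 3x with isotype and 32.7% and 34.7% under the block. The entry enzyme G6pdx rose by 0.31 (SE 0.06) with H16R and 0.42 (SE 0.06) with 3x under the block, and by 0.14 and 0.15 with isotype. Neither isotype call held with library totals in place of TMM scaling, and that for 3x was lost without isotype 3x replicate 1 (0.08) and that for H16R without isotype H16R replicate 3 (0.11), isotype PBS replicate 2 (0.13), 3 (0.14) or 4 (0.13). Pgd, the second NADPH-making step, was at 70.1, 64.1, 62.0 and 56.6 CPM with isotype PBS and at 85.1, 81.4, 86.2 and 78.9 with isotype WT, without overlap, and rose by 0.38 to 0.52 with the muteins. The carbon-shuffling enzymes Tkt and Taldo1 rose by 0.45 and 0.53 with H16R and by 0.37 and 0.62 with 3x under the block (SE 0.06 and 0.07). WT raised 3 of the 4 in each arm, with G6pdx not called in the isotype arm and Tkt not called under the block. Of all genes, 26.0% rose with WT with isotype and 21.9% under the block.

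Hif1a, whose protein is known to be set mainly by its stability, changed also at the mRNA level. Hif1a was at 284, 295, 343 and 391 CPM with PBS, 392, 542, 410 and 430 with WT, 427, 402, 410 and 432 with H16R and 355, 357, 372 and 370 with 3x in the isotype arm. Under the block Hif1a was at 292, 295, 298 and 307 with PBS, 243, 333, 354 and 311 with WT, 391, 386, 397 and 410 with H16R and 463, 379, 398 and 415 with 3x. The isotype 3x and block WT libraries overlapped PBS and the other 4 treated groups lay above it. Hif1a rose by 0.44 (SE 0.09) with WT and 0.35 with H16R in the isotype arm and by 0.41 with H16R and 0.46 (SE 0.09, edgeR adjusted p = 6.63e-05) with 3x under the block, while 3x with isotype gave 0.16 (edgeR adjusted p = 0.135). The isotype H16R call did not hold with the B cell markers as a covariate, at 0.25.

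Of 21 further genes of the HIF pathway 20 were tested in Tregs, and 6, 7 and 8 rose and 1, 3 and 4 fell with WT, H16R and 3x in the isotype arm. Under the block 7, 9 and 10 rose and 0, 3 and 4 fell, in each case out of the same 20. In the isotype arm the rises were 30.0%, 35.0% and 40.0% of the list, against 26.0%, 31.4% and 31.3% of all genes, and under the block 35.0%, 45.0% and 50.0%, against 21.9%, 32.7% and 34.7%. The calls furthest from 0 in the isotype arm were falls of Adm (adrenomedullin), a gene at a mean of 0.976 CPM, by 1.66 with WT (SE 0.37), 2.11 with H16R (SE 0.39) and 1.80 with 3x (SE 0.38). Vegfa, at a mean of 2.43 CPM, fell with both muteins in that arm, by 1.54 (SE 0.30) with 3x, and rose by 1.21 (SE 0.28) with WT under the block. Ndrg1, a stress-induced gene at a mean of 40.9 CPM, rose by 0.76, 1.32 and 1.70 in the isotype arm and by 0.70, 1.33 and 1.81 under the block (SE 0.11 each). Ddit4 (REDD1), which restrains mTORC1, rose by 0.75, 0.78 and 0.71 with isotype and by 0.23, 1.04 and 1.29 under the block (SE 0.10 each). Egln3, a HIF prolyl hydroxylase, fell with both muteins in both arms, by 0.31 to 0.56, and Epas1 (HIF2A) fell by 0.68 (SE 0.19) with 3x and isotype and rose by 1.25 (SE 0.18) with 3x under the block. The list thus moved in both directions, and its median lay between 0.06 and 0.17 in these 6 comparisons, against -0.04 to 0.02 for all genes.

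Of 34 other genes of these pathways 28 were tested. WT, H16R and 3x raised 8, 7 and 6 and lowered 7, 9 and 10 of them in the isotype arm, and raised 4, 6 and 6 and lowered 1, 7 and 10 under the block, with medians between -0.08 and 0.04. With isotype these were 28.6%, 25.0% and 21.4% higher and 25.0%, 32.1% and 35.7% lower, near or below the shares of all genes for rises and near them for falls. Under the block they were 14.3%, 21.4% and 21.4% higher and 3.57%, 25.0% and 35.7% lower, against 21.9%, 32.7% and 34.7% and against 13.7%, 33.8% and 38.3% of all genes. The changes furthest from 0 were in genes at low level. Slc16a7, at a mean of 0.585 CPM, fell with isotype by 2.44, 2.44 and 2.64 with WT, H16R and 3x (SE 0.54 each). The enolase gene Eno1b, at 1.94 CPM, rose there by 1.47 with WT and 1.59 with H16R, and by 1.69 with 3x under the block. Tktl1, at 2.65 CPM, rose by 1.46 with H16R and isotype and by 1.15, 1.33 and 1.32 under the block. The neuronal enolase Eno2 fell by 0.78 (SE 0.14) with H16R and 0.98 (SE 0.14) with 3x in the isotype arm and by 0.67 and 0.92 under the block. Hk3, a hexokinase of myeloid cells, fell by 1.53 (SE 0.25) with 3x and isotype and rose by 0.95 (SE 0.24) with WT under the block, the group with the highest myeloid markers, and the part of those cells in the rise was not tested. Adpgk, the ADP-dependent glucokinase, rose by 0.45 with H16R and 0.46 with 3x in the isotype arm (SE 0.06 each). Pklr, at a mean of 1.70 CPM, fell by 1.91 (SE 0.72) with 3x and isotype and by 1.60 and 1.45 with H16R and 3x under the block.

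The effect of the antibody itself was read by setting MHC II block beside isotype under the same molecule. In PBS-treated mice it lowered 3 of the 38 genes and raised 0, against 8.13% and 6.00% of all genes, and 6 of the 38 had an unadjusted p under 0.05 with edgeR. DESeq2 and limma also raised 0 and lowered 3. The 3 were Hk2, Slc16a1 and the carrier subunit Mpc1, whose call at -0.16 did not hold without isotype PBS replicate 2, 3 or 4 or without any 1 of the block PBS libraries (-0.18 to -0.14). After WT the block lowered 20 and raised 2, or 52.6% and 5.26%, against 15.3% and 18.2% of all genes. After H16R it raised 12 and lowered 1, against 15.4% and 15.2%. After 3x it raised 18 and lowered 8, or 47.4% and 21.1%, against 27.2% and 26.9%. Markers of other cells moved in the same contrasts. With the block, 4 of 5 CD8 and NK cell markers were higher after H16R (median log2 1.51) and after 3x (1.68), as were 4 of 4 cycling markers (0.53 and 0.65), 4 and 2 of 6 myeloid markers, 1 and 3 of 5 B cell markers and 0 and 5 of 5 erythroid markers. After WT 6 of 6 myeloid, 5 of 5 B cell, 3 of 5 CD8 and NK cell and 2 of 5 erythroid markers were higher and 5 of 5 Treg and 4 of 4 T cell markers lower. The part of these in the counts was not tested beyond the B cell covariate and the fit without the 2 libraries with high myeloid markers. With the B cell markers as a covariate these last 3 counts of 22, 13 and 26 became 9, 7 and 12. The count after H16R was 7 without block H16R replicate 3, 8 without block H16R replicate 4 or isotype H16R replicate 4 and 16 without block H16R replicate 2.

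The sign of the block effect depended on the molecule in a set of these genes. After WT, 12 genes were lower with the block that were higher with it after 3x, namely Aldoa, Gapdh, Hk1, Ldha, Pdk3, Pfkl, Pfkp, Pgd, Pgk1, Pkm, Slc16a3 and Tpi1, and 8 of these, without Hk1, Pdk3, Pfkl and Pgd, were also higher after H16R. The 12 are 31.6% and the 8 are 21.1% of the 38, against 4.59% and 1.65% of all genes with the same calls. Several of these calls were weak. Without block WT replicate 1, Pdk3 (-0.15), Pfkp (-0.13) and Pgk1 (-0.15) were no longer called after WT, and without block 3x replicate 1 neither were Pfkl (0.10) and Pgd (0.11) after 3x. Slc16a3 was lower by 0.81 (SE 0.14) after WT and higher by 0.73 (SE 0.14) after H16R and by 1.13 (SE 0.14, edgeR adjusted p = 3.13e-07) after 3x, and the libraries of the arms did not overlap in any of the 3. Ldha was lower by 0.28 (SE 0.08) after WT and higher by 0.35 and 0.55 after H16R and 3x. Pkm was lower by 0.34 (SE 0.06) after WT and higher by 0.23 (SE 0.06) after 3x, and Gapdh was lower by 0.34 (SE 0.07) and higher by 0.25 and 0.36. With the B cell markers as a covariate the calls after WT for Ldha (-0.11) and Gapdh were lost and that for Slc16a3 (-0.84) was kept. In the group with the lower values, WT under the block, the 5 Treg markers summed to 2409 to 3386 CPM against 3921 to 4453 with isotype, and the part of cell composition in these differences was not tested.

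Other genes did not follow this pattern. Slc2a1 was lower with the block after both WT (-0.37, SE 0.06) and 3x (-0.22, SE 0.06), and Aldoc was lower after WT (-0.60, SE 0.11) with no call after the muteins. Pdk1 went the other way from Ldha, at 0.26 (SE 0.07) after WT and -0.43 (SE 0.07, edgeR adjusted p = 1.49e-05) after 3x. Ldhb and Eno3 were each lower by 0.37 (SE 0.08) after 3x, and Pdk2 by 0.36 (SE 0.12). With the B cell markers as a covariate the calls for Aldoc after WT (-0.36) and for Slc2a1 (-0.04), Pdk1 (-0.19) and Eno3 (-0.20) after 3x were lost, and those for Ldhb and Pdk2 were kept.

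**Figure D3:**
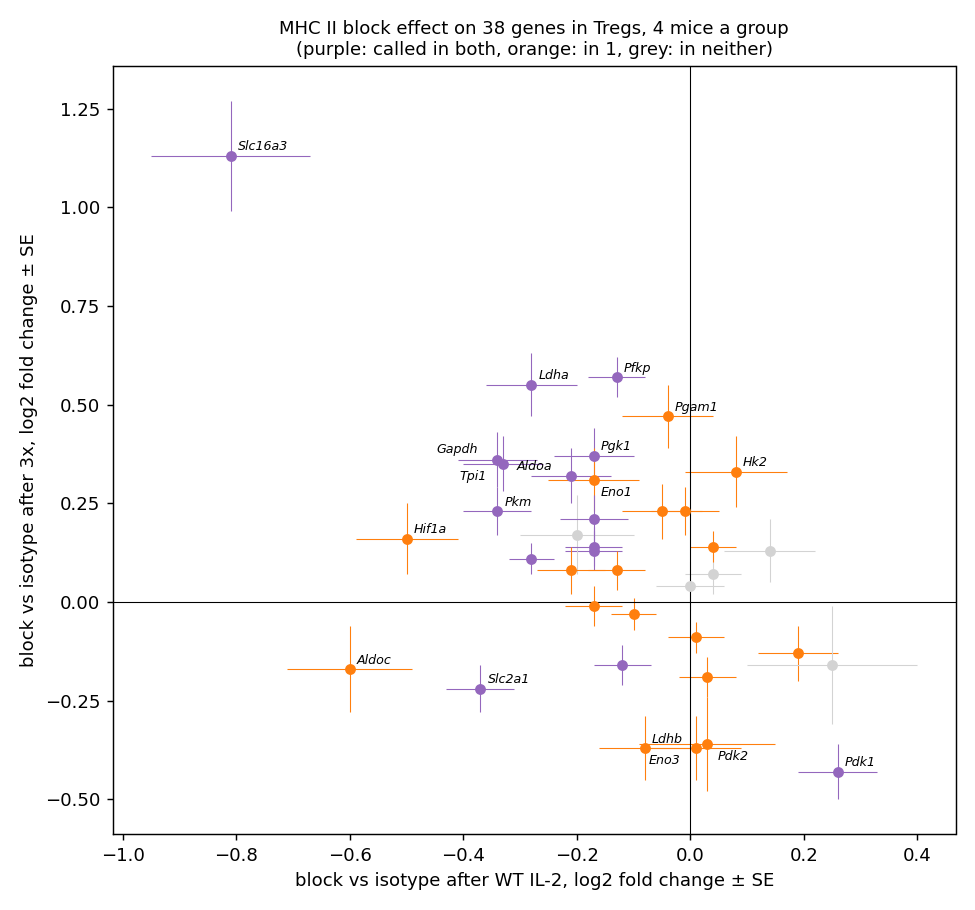
Log2 fold change of MHC II block against isotype in Tregs after WT IL-2 (x axis) and after the 3x mutein (y axis) for the 38 genes, with bars of 1 SE (n = 4 per group) and purple for genes called in both, orange for genes called in 1 and grey for neither. Slc16a3 at -0.81 and 1.13 heads the 12 genes at the upper left that are lower after WT and higher after 3x, and Pdk1 at 0.26 and -0.43 lies opposite.

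Tested as an interaction, the IL-2 response differed between the arms in 12 genes for WT (2 higher and 10 lower under the block, against 11.7% and 7.98% of all genes), in 13 for H16R (11 and 2, against 10.6% and 8.47%) and in 23 for 3x (19 and 4, against 20.3% and 18.7%). These counts became 4, 8 and 13 with the B cell markers as a covariate, and that for H16R was 7 without block H16R replicate 3 and 19 without block H16R replicate 2. Without the 2 libraries with high myeloid markers the counts were 17, 10 and 22. Markers of several cell types differed in the same tests, as given under the flagged results, and their part was not tested further.

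The molecules were also compared with each other at their 1 shared dose and day. With isotype H16R stood close to WT, being higher in 4 and lower in 4 of the 38 genes, or 10.5% each, against 8.87% and 9.76% of all genes. The 3x mutein was higher in 6 and lower in 11, or 15.8% and 28.9%, against 16.9% and 17.7% of all genes. The H16R count was 5 without isotype H16R replicate 1, isotype H16R replicate 3 or isotype WT replicate 2, and its split without TMM scaling was 3 and 6. With the B cell markers as a covariate H16R differed from WT in 4 genes and 3x in 0, where 17 had been called without it. Hk2 was lower with H16R by 0.77 (SE 0.09) and with 3x by 0.69 (SE 0.09) than with WT. Slc16a3 did not differ detectably between H16R and WT, with a 95% interval from -0.36 to 0.18, and was lower with 3x by 0.62 (SE 0.14). Ldha differed from WT by 0.15 with H16R and 0.16 with 3x, neither called, with intervals from 0.01 to 0.30 and from 0.02 to 0.31.

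Under the block the muteins stood well above WT. H16R was higher in 22 and lower in 3 of the 38 genes, or 57.9% and 7.89%, against 25.5% and 32.0% of all genes, and 3x was higher in 26 and lower in 7, or 68.4% and 18.4%, against 30.0% and 38.7%. Slc16a3 was higher than with WT by 1.45 (95% interval 1.17 to 1.73) with H16R and by 1.32 (1.04 to 1.60) with 3x. Ldha was higher by 0.78 (0.63 to 0.93) and 0.99 (0.84 to 1.14), and Aldoc by 0.99 (0.77 to 1.22) and 0.47 (0.25 to 0.69), the last not called with the B cell markers as a covariate (0.27). The 3x mutein was also above WT for Pfkp by 0.68 (SE 0.05) and Eno1 by 0.64 (SE 0.08) and below it for Pdk2 by 0.59 (SE 0.12) and Ldhb by 0.54 (SE 0.08). Markers of cycling cells summed to 380 to 494 CPM with WT, 580 to 677 with H16R and 855 to 1144 with 3x in this arm, and CD8 and NK cell markers to 103 to 159, 225 to 240 and 179 to 271. Against WT, 5 of 5 B cell markers were lower with H16R and 3x (median log2 -2.22 and -1.86). So were 5 of 6 myeloid markers (-3.46 and -4.07), with 1 higher with 3x. Treg markers were higher in 4 of 5 with each (0.46 and 0.56) and T cell markers in 4 and 3 of 4. With the B cell markers as a covariate 21 and 26 of the 38 genes were called, and 25 and 33 without the 2 libraries with high myeloid markers. The part of these markers was not tested further.

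In the 16 mice with both fractions, Tregs were higher than Tcons in 16 of the 38 genes and lower in 9, or 42.1% and 23.7%, against 38.2% and 37.7% of the 12844 genes tested, and without TMM scaling the split was 11 and 15. Slc16a3 was 3.11-fold higher in Tregs (log2 1.64, SE 0.15, edgeR adjusted p = 2.31e-08), with Tcon pairs at 4.26 and 3.80 CPM with isotype PBS, 5.27 and 9.23 with isotype WT, 5.34 and 4.95 with isotype H16R and 4.17 and 3.54 with isotype 3x. Under the block the Tcon pairs were at 3.82 and 3.29, 6.63 and 6.54, 5.90 and 4.81, and 4.51 and 5.02 in the same order. The Tcon libraries met the range of Tregs only at its low end, as isotype PBS Tregs began at 6.29 CPM. Markers of other cells differed as well, all 5 tested B cell markers, 7 of 7 myeloid, 5 of 5 CD8 and NK cell and 6 of 6 tested erythroid markers being lower than in Tcons. Ighm, annotated as an immunoglobulin constant region gene and so outside the protein-coding genes tested, was higher in isotype PBS Tregs (7382 to 10451 CPM) than in Tcons of that group (5035 to 6091) and lower in isotype H16R Tregs (2819 to 4306) than in Tcons of that group (11356 to 12558). The part of these in the differences was not tested. Aldoc was 2.81-fold higher (1.49, SE 0.14), its Tcon libraries lying between 3.15 and 4.36 CPM. Hif1a was higher by 1.21 (SE 0.11), Slc2a3 by 0.97 (SE 0.04), Ldhb by 0.78 (SE 0.08) and Pkm by 0.54 (SE 0.04) in Tregs, and Pfkfb4, Slc16a1, Pdk1 and Pfkm were lower by 0.72, 0.66, 0.64 and 0.53.

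With IL-2 the Treg to Tcon difference shifted towards Tregs in 7 of the 38 genes and towards Tcons in 6, against 19.9% and 17.1% of all genes. It shifted towards Tregs by 1.15 (SE 0.17, edgeR adjusted p = 7.22e-04) for Aldoc, by 0.87 (SE 0.16) for Hif1a and by 0.45 (SE 0.13) for Ldha, and towards Tcons by 0.67 (SE 0.15) for Pfkm and by 0.51 for Ldhb (SE 0.15) and Pdk2 (SE 0.13). For Aldoc the mean log2 difference went from 0.61 in the 4 PBS mice to 1.75 in the 12 IL-2 mice, and for Ldhb from 1.15 to 0.63. Pfkm was about equal in both fractions with PBS (-0.03) and lower in Tregs with IL-2 (-0.71). Tcons moved as well. Hif1a in Tcons changed by -0.28, -0.57 and -0.57 with WT, H16R and 3x, none called, and Pfkm there was at 18.4 to 26.6 CPM with PBS and 18.9 to 41.3 with IL-2. In the same test 4 of 7 myeloid, 3 of 6 erythroid and 2 of 5 CD8 and NK cell markers shifted towards Tcons. Of these lists 1, 0 and 1 shifted towards Tregs, as did 3 of 4 T cell markers. The part of these markers was not tested.

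**Figure D4:**
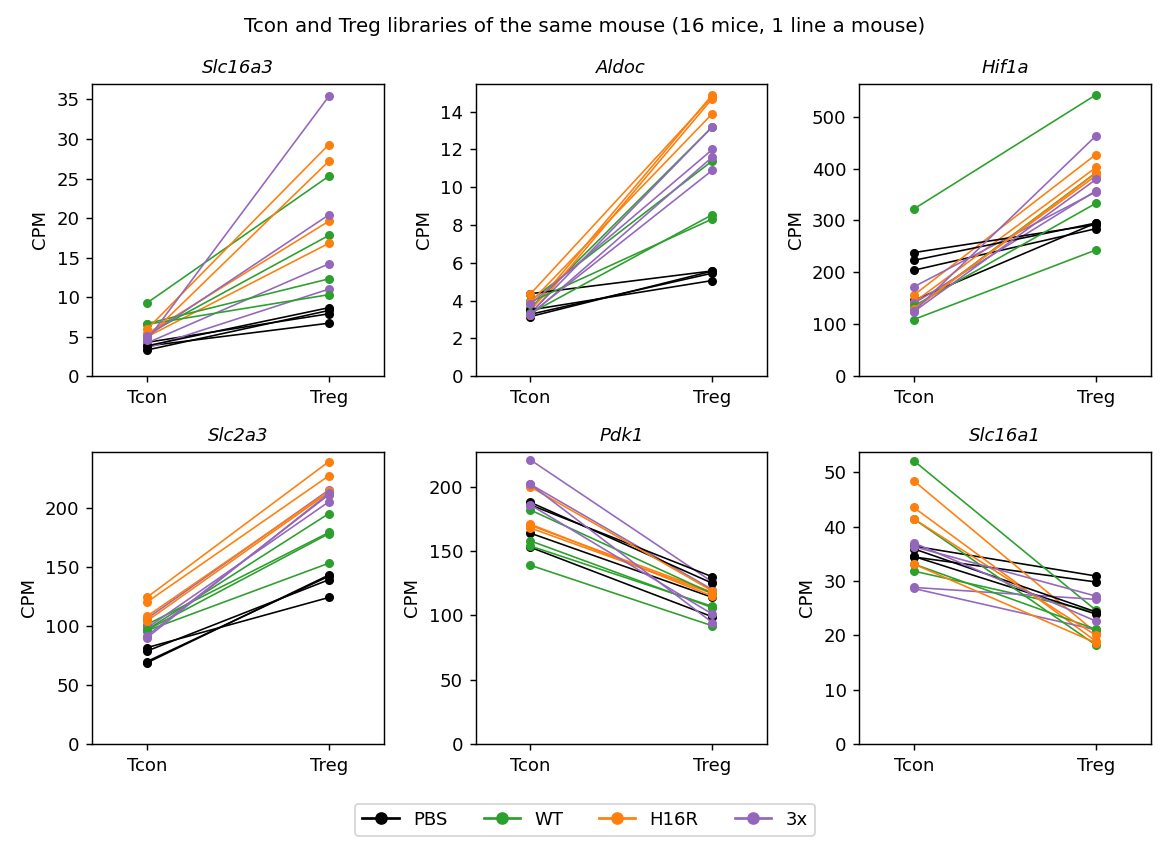
CPM of Slc16a3, Aldoc, Hif1a, Slc2a3, Pdk1 and Slc16a1 in the Treg and the Tcon library of each of 16 mice, with 1 line per mouse coloured by IL-2 molecule or PBS. The lines of Slc16a3 and Aldoc rise from Tcons to Tregs, by a mean log2 of 1.80 and 1.75 in the 12 IL-2 mice against 1.05 and 0.61 in the 4 PBS mice. As log2 differences, those of Slc16a3 in the block WT mice are no larger than in the block PBS mice. Tcon Aldoc is at 3.15 to 4.36 CPM throughout, and the lines of Pdk1 and Slc16a1 fall.

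In Tcons themselves, with both arms in 1 fit and 2 mice per group, WT raised 10 and lowered 1 of the 38 genes (14.8% and 12.4% of all genes), H16R raised 10 and lowered 3 (16.2% and 14.9%) and 3x raised 4 and lowered 0 (4.71% and 5.17%), with 13 at an unadjusted p under 0.05 by edgeR and 8 raised and 0 lowered by DESeq2. The counts rested on few mice. That for WT ran from 6, without block PBS replicate 2 or block WT replicate 1, and 7, without block PBS replicate 1, isotype PBS replicate 1 or isotype WT replicate 1, to 18 without isotype WT replicate 2, whose Treg markers summed to 1419 CPM against 332 to 712 in the other Tcon libraries. That for H16R was 6 without isotype H16R replicate 1 and 7 without block PBS replicate 1, and that for 3x was 2 without block 3x replicate 1, block PBS replicate 1 or 2 or isotype PBS replicate 2. Slc2a3 rose with every molecule, by 0.39 with WT, 0.61 with H16R and 0.37 with 3x (SE 0.04 each, edgeR adjusted p = 3.47e-04, 4.91e-06 and 5.62e-04), and its treated Tcon libraries lay at 89.8 to 124 CPM against 68.6 to 81.5 with PBS. Slc16a3 rose by 0.87 (SE 0.16) with WT. Ldha changed by 0.05, 0.13 and 0.13 and Aldoc by 0.06, 0.07 and -0.06, none of them called, with 95% intervals that reach 0.25 at most for Ldha and 0.30 at most for Aldoc.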

How the data were processed

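RNA was sequenced from 32 Treg and 16 Tcon libraries of 32 mice. Reads were aligned with OSA in Omicsoft Array Suite to mouse B38 and genes were quantified with Omicsoft's RSEM, and the authors deposited 1 matrix of expected counts and 1 of FPKM values, both per gene. The gene model is given as GENCODE v19, a release name of the human series, so mouse gene names, biotypes and positions were taken from GENCODE vM21 on GRCm38. The deposited comparison tables hold fold changes and p-values from DESeq2 1.30.1 and were not used. Of the nonzero expected counts 72.6% were whole, and all were rounded. There were 0 columns of samples outside the series.

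Protein-coding genes with CPM above 0.5 in at least 4 of the fitted libraries were tested (12392 genes in Tregs, 12526 in Tcons, 12844 in the Treg and Tcon pairs). The test was edgeR 4.0.16 quasi-likelihood in R 4.3.3 with TMM scaling and a Benjamini-Hochberg adjusted p under 0.1. All 32 Treg libraries shared 1 fit with a term per group, Tcons were fitted over both arms with antibody as a covariate, and the Treg and Tcon pairs were fitted with mouse as a block. Printed CPM come from 1 scaling over all 48 libraries, and levels between genes were compared only as FPKM. Intervals are 95%.

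The 38 members and the other lists were chosen with earlier results of these data known. Library values are given for Hif1a, Slc2a1, Hk2, Pdk1, Ldha and Slc16a3 and, in each comparison of IL-2 with PBS and of block with isotype, for the called members above 5 CPM that rose most (2) or fell most (2). Outside this rule, they are also given for Gapdh with PBS and 3x and for Pgd with isotype PBS and isotype WT. Alternatives were DESeq2 1.42.0, limma 3.58.1 on log2(FPKM + 1), library totals in place of TMM, no filter on low counts, all biotypes, a threshold of 0.05, a fit of only the groups compared, empty cells read as 0, the replicate number as a block and leaving out each library. A further 2 were chosen after seeing the data, namely a covariate for the summed B cell markers, in effect Ighm, and leaving out the 2 Treg libraries with high myeloid markers. The fit without 1 Tcon library with high Treg markers is among those that leave out each library, and was singled out after seeing the data.

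The fits were tested on simulated data with known changes. DESeq2 made more false calls there than its nominal rate. edgeR stayed closer to that rate but ran above it in single runs of most comparisons simulated. The limits of that test were changed after its results had been seen and now rest on sign, fitted size and null p-values. Same-numbered mice of different Treg groups did not deviate together (median correlation 0.02 over 112 pairs), so the numbers were not taken as pairs, whereas the Treg and Tcon library of 1 mouse did (median 0.26 over 16 pairs). No pair of libraries agreed within sampling noise.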

Additional observations from a re-analysis of the deposited data

Results flagged for a closer look

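Within the groups of 4 Treg libraries, 304 sets of values were examined for a lone high or low library by Dixon's test, and 23 stood apart where chance at about 1 in 20 gives 15.2. They are values to check, and the 15.2 takes the genes of a library as independent, which they need not be. Of the transporters and upper glycolysis, Slc2a1 was at 43.5 CPM in block PBS replicate 3 against 47.9 in the rest, Slc2a3 at 224 in block H16R replicate 4 against 213 to 215, Hk1 at 186 in isotype PBS replicate 3 against 178, Hk2 at 23.6 in isotype PBS replicate 1 against 19.8 to 20.3 and Pfkm at 16.2 in block H16R replicate 3 against 18.2 to 18.3. Pfkfb3 was at 82.2 in isotype WT replicate 2 against 79.0 to 79.1, Pfkfb4 at 11.8 in block WT replicate 1 against 6.42 to 6.97 and Aldoa at 295 in isotype H16R replicate 3 against 284 to 286.

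In lower glycolysis, Gapdh was at 594 CPM in block H16R replicate 2 against 730 to 750 and Pgam1 at 72.4 in the same library against 82.7 to 83.2. Pgam1 was at 75.8 in block 3x replicate 2 against 96.3 to 98.9, Eno3 at 19.0 in block 3x replicate 3 against 21.7 to 21.8 and Pkm at 869 in isotype 3x replicate 1 against 776 to 789. Ldhb was at 38.2 in block H16R replicate 1 against 32.6 to 32.7, and Slc16a3 at 25.3 in isotype WT replicate 2 against 16.7 to 17.8. Dlat was at 28.5 in block WT replicate 4 against 30.1 to 30.4 and Pdk1 at 96.0 in block H16R replicate 3 against 115 to 119. Pdk3 was at 21.0 in block H16R replicate 2 against 25.1 to 25.8 and at 23.3 in block 3x replicate 2 against 26.7 to 27.1. G6pdx was at 43.7 in isotype WT replicate 3b against 45.9 to 46.3 and at 50.4 in block 3x replicate 2 against 55.9 to 56.3, and Tkt was at 306 in isotype PBS replicate 1 against 258 to 262 and at 345 in isotype 3x replicate 1 against 314 to 318. Block H16R replicate 2 and block 3x replicate 2 thus stood low for several genes at once.

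The other values stood out because the change against PBS differed between the antibody arms in the edgeR interaction test, given here as the log2 change under the block minus that with isotype. For WT the response was lower under the block for Slc16a3 (-0.91), Aldoc (-0.57), Hif1a (-0.36), Ldha (-0.32), Pkm (-0.31), Hk1 (-0.29), Slc2a1 (-0.29), Pfkp (-0.21), Pfkl (-0.19) and Pgd (-0.19) and higher for Hk2 (0.65) and Pfkfb4 (0.57). Of these, Hif1a was lost without block WT replicate 1 (-0.27), isotype PBS replicate 1 (-0.30) or 2 (-0.32) or isotype WT replicate 2 (-0.28), Pfkfb4 without block WT replicate 1 (0.31), block PBS replicate 4 (0.49), isotype PBS replicate 1 (0.46) or 4 (0.54) or isotype WT replicate 1 (0.55), 2 (0.53) or 3b (0.55), and Pfkp without block PBS replicate 1 (-0.19) or 2 (-0.21), block WT replicate 3 (-0.19), isotype PBS replicate 2 (-0.19) or isotype WT replicate 3b (-0.20).

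For H16R the response was higher under the block for Hk2 (0.78), Slc16a3 (0.63), Slc16a1 (0.58), Gapdh (0.41), Pgam1 (0.38), Pgk1 (0.38), Tpi1 (0.34), Mpc2 (0.33), Eno1 (0.32), Ldha (0.30) and Mpc1 (0.26) and lower for Pdk1 (-0.26) and Slc2a3 (-0.19). Slc16a3 was lost without block H16R replicate 3 (0.54) or isotype PBS replicate 3 (0.52), Ldha without block H16R replicate 3 (0.29) or 4 (0.25), isotype H16R replicate 4 (0.25) or isotype PBS replicate 1 (0.26), and Pdk1 without 1 of 9 libraries (-0.26 to -0.19).

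For 3x the response was higher under the block for Slc16a3 (1.03), Hk2 (0.90), Slc16a1 (0.65), Pgam1 (0.60), Gapdh (0.52), Pgk1 (0.52), Ldha (0.50), Pfkp (0.49), Tpi1 (0.47), Eno1 (0.42), Aldoa (0.32), Pdk3 (0.31), Hif1a (0.30), Pkm (0.27), G6pdx (0.27), Taldo1 (0.26), Mpc1 (0.20), Dlat (0.16) and Pdhb (0.15) and lower for Pdk1 (-0.57), Ldhb (-0.32), Pfkm (-0.24) and Slc2a3 (-0.21). Hif1a was lost without 1 of 7 libraries (0.21 to 0.30) and Pfkm without 1 of 7 (-0.23 to -0.19). B cell markers moved with these contrasts, all 5 tested being higher in each of the 3 interactions. For WT, H16R and 3x, 6, 5 and 6 of 6 myeloid markers and 3, 4 and 3 of 5 CD8 and NK cell markers were higher. Cycling markers were higher in 0, 2 and 3 of 4. Treg markers were lower in 3, 2 and 2 of 5, with 1 higher for 3x, and T cell markers in 4 of 4 for WT. The part of all these was not tested beyond the covariate and the fit without the 2 libraries with high myeloid markers.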

How the results depend on the processing

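DESeq2, limma, library totals, other filters and the replicate block left most calls in place. Of 5205 alternatives for 255 pairs of a singled-out gene and a comparison, 4877 gave the same call and sign, 266 lost and 58 gained the call and 4 changed sign. The 4 all came with the B cell marker covariate, which gave Pdk1 -0.12, Slc2a1 -0.06 and Pdk2 0.08 for 3x over PBS with isotype and Pdk2 0.03 for H16R. That covariate moves with the groups, so its share and that of the treatments cannot be told apart. With it, 8 members were called for 3x over PBS with isotype, 6 for WT over PBS under the block, 9, 7 and 12 for block against isotype after WT, H16R and 3x, 4 and 0 for H16R and 3x over WT with isotype and 4, 8 and 13 in the interactions of WT, H16R and 3x. At an adjusted p under 0.05, 5 were called for H16R over WT with isotype, 7 in the interactions of WT and of H16R, and 7, 8 and 2 for WT, H16R and 3x in Tcons. H16R over WT with isotype also gave 5 with all biotypes or without the low-count filter. For 3x in Tcons, DESeq2, library totals and all biotypes gave 8 each and limma 7. The causes were not tested. When single libraries were left out, counts ran from 7 to 16 for block against isotype after H16R, 5 to 8 for H16R over WT with isotype, 7 to 19 in the H16R interaction and, in Tcons, 6 to 18 for WT, 6 to 15 for H16R and 2 to 4 for 3x. With the replicate number as a block, which pairs no animals, 31 members were called for WT over PBS with isotype, 10 under the block and 22 for block against isotype after WT, and no count moved by over 1.5 times. Without the mouse block, Tregs and Tcons differed in 25 members. With 4 mice a group, changes well under a log2 of 1 can be missed.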

Other observations

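In Tcons WT IL-2 raised all 4 pentose phosphate genes, 3 of them in the H16R comparison and 2 in that of 3x, which share their PBS libraries. Of all genes tested 14.8%, 16.2% and 4.71% rose with WT, H16R and 3x. Erythroid markers were higher in 6 of 6 with WT and with H16R and in 0 with 3x. Cycling markers were higher in 4 of 4, 4 of 4 and 0, and CD8 and NK cell markers in 3, 2 and 2 of 5. The part of these markers was not tested. G6pdx rose by 0.34 (SE 0.06, edgeR adjusted p = 0.00330) with WT, 0.24 with H16R and 0.19 with 3x, and Pgd by 0.29, 0.25 and 0.18 (SE 0.05 each). Hk2 in Tcons differed between antibody arms within a molecule, at 13.3 and 12.3 CPM with isotype WT against 21.0 and 22.1 with block WT and at 7.43 and 6.70 with isotype 3x against 16.4 and 16.5 with block 3x, but at 18.3 and 17.6 with isotype PBS against 12.0 and 10.1 with block PBS. These pairs of mice were not tested for that difference. Myeloid markers summed to 565 to 664 CPM in the block WT Tcons and 108 to 114 in the isotype PBS Tcons, and their part was not tested.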
